A study of Mus musculus with 384 samples.

Results

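Regulatory T (Treg) cells restrain other immune cells and depend on the transcription factor Foxp3 and on interleukin-2, which they bind through the receptor chain Il2ra. In skin they also carry genes of tissue repair, such as the growth factor Areg, and of barrier T cells, such as the transcription factors Gata3 and Rora. The 16 wells described here each received 10 sorted Treg cells from mouse ear skin and served as positive controls in a plate study of single Treg cells. They were all the wells that the labels call ten-cell controls, 16 in all, or 4 of the 96 wells on each of 4 plates. Each plate also held 87 single-cell wells and 5 wells without a cell.

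Mice received imiquimod, an agonist of the RNA sensor Tlr7, or vehicle on the ear skin, and cells were taken at day 3 from 2 mice of each kind. The labels give a treatment to the single-cell wells of a plate but none to its ten-cell wells. Treatment was therefore inferred from the plate: plates 1 and 2 held vehicle cells, and plates 3 and 4 held imiquimod cells. Strain, age, sort gate and the link between mouse and plate are not given in the sources used here. Nothing in the labels says that wells of a plate came from separate animals, so p-values measure the spread between these wells or plates, which may be technical. Single-cell wells entered comparisons if they had at least 500 genes and 10000 counts, which kept 62, 58, 38 and 44 of the 87 on plates 1 to 4. Values are read counts per gene, given on the CPM scale (a gene's share of all counts of the well), which are not corrected for gene length and are compared only within a gene or a fixed list.

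Ten-cell wells held between 710021 and 9159522 counts, with a median of 3934432.5, against a median of 1443212.5 in the kept single-cell wells. Of the ten-cell wells, 3 stood apart and are marked wherever a result rests on them. Plate 2 well 2 held 29090 CPM of fibroblast markers, where the next highest ten-cell well held 796 CPM. Plate 4 well 3 held 13140 CPM of MHC class II genes and 2957 CPM of macrophage and monocyte markers. Plate 4 well 4 was the shallowest, with 710021 counts, and differed from the other wells of its plate in ribosomal protein genes.

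The Treg label was first checked against its defining genes, and it held in all 16 wells for Foxp3, Il2ra and Ikzf2. Foxp3, the lineage factor, stood at 656.2, 373.8, 1095 and 226.5 CPM in wells 1 to 4 of plate 1, and at 1211, 259.7, 1038 and 403.1 CPM on plate 2. On plate 3 Foxp3 stood at 1237, 633.4, 74.55 and 665.7 CPM, and on plate 4 at 43.33, 1072, 297.9 and 76.05 CPM. The highest and lowest Foxp3 wells were both on imiquimod plates, and the plates overlapped.

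Il2ra, the high-affinity interleukin-2 receptor chain, stood at 945, 1429, 2407 and 2043 CPM on plate 1 and at 4982, 1327, 2795 and 1057 CPM on plate 2. The imiquimod plates gave 1168, 467.4, 304.4 and 781.7 CPM on plate 3 and 2680, 746.6, 824.8 and 161.97 CPM on plate 4. Most imiquimod wells lay below the vehicle wells in Il2ra, but plate 3 well 1 and plate 4 well 1 lay within their range. Ikzf2 (Helios), a transcription factor of stable Treg cells, stood at 2553, 4034, 535.6 and 2456 CPM on plate 1 and at 6138, 2394, 3962 and 2693 CPM on plate 2. It stood at 1309, 779.3, 61.19 and 165.96 CPM on plate 3 and at 1711, 1083, 639.9 and 5.634 CPM on plate 4. In Ikzf2, 7 of the 8 vehicle wells exceeded every imiquimod well, the exception being plate 1 well 3. Cd3e, a signalling chain of the T cell receptor complex, ranged from 60.42 to 655.1 CPM in 15 wells and had no count in plate 4 well 4. In the 20 wells without a cell, Foxp3, Il2ra and Cd3e had no count, and Ikzf2 had one in 1 well.

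Other genes of the Treg programme varied in how regularly they were found. Of 16 core Treg genes, all were found in at least 1 ten-cell well, 13 in at least 8 and 7 in all 16. Ctla4, the inhibitory receptor that competes for CD28 ligands, and Icos, a costimulatory receptor, were found in all 16 wells with medians of 548.6 and 1454 CPM. Tnfrsf4 (OX40), a TNF receptor that sustains T cells, had a median of 1733 CPM (131.9 to 5360), and Tnfrsf18 (GITR), its relative, 941.8 CPM (0 to 4249). The tissue-repair factor Areg ranged from 32.75 to 2869 CPM and was found in all 16 wells. Gata3 ranged from 106.2 to 2695 CPM, and Rora from 1.408 CPM in plate 4 well 4 to 2702 CPM. The summed core list had a median of 12660 CPM (5508 to 19480) over the ten-cell wells. Over the kept single-cell wells its median was 9737 CPM and its mean 13060 CPM. Its 3 lowest ten-cell wells included plate 2 well 2 at 6003 CPM and plate 4 well 4 at 5786 CPM, both among the wells that stood apart.

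**Figure D1:**
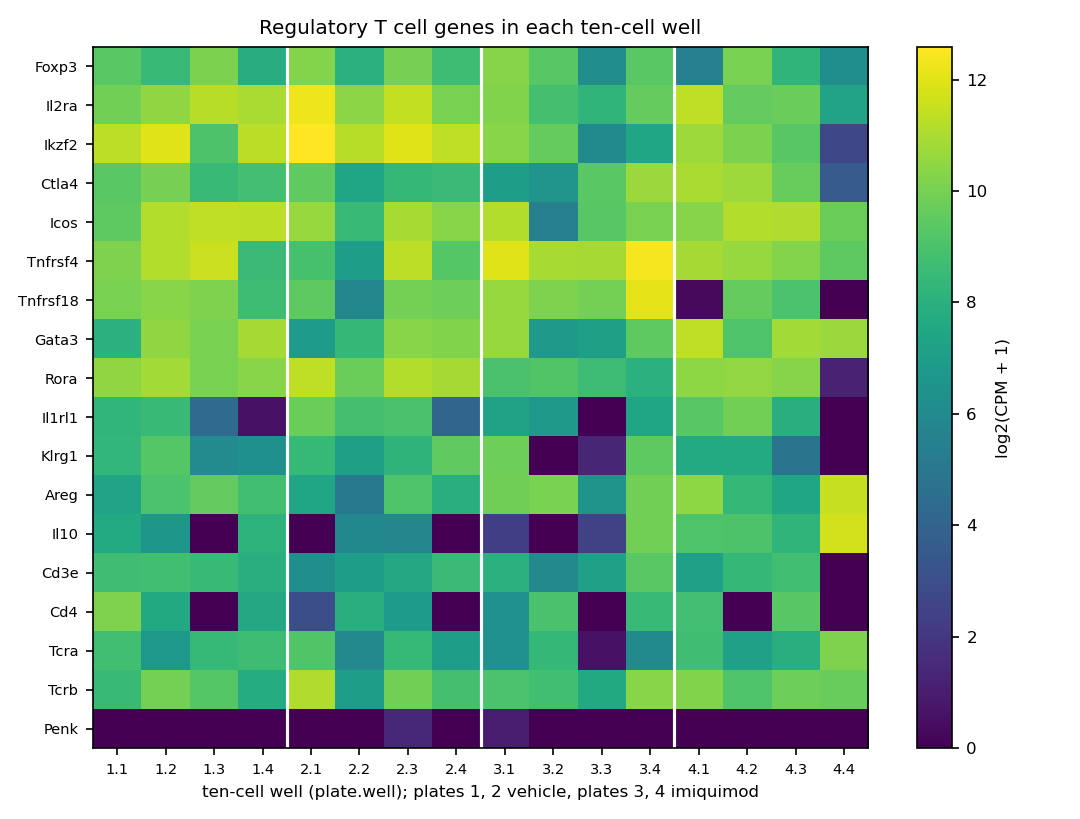
Level of 18 Treg and T cell genes (rows) in each of the 16 ten-cell wells (columns, named plate.well, white lines between plates) as log2(CPM + 1). Foxp3, Il2ra, Ikzf2, Ctla4, Icos, Tnfrsf4 and Gata3 carried a count in every well, whereas Penk did so in 2.

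Penk, the precursor of enkephalin opioid peptides and the subject of the study's title, was close to its limit of detection in the ten-cell wells. It was found in 2 of 16 wells, at 1.701 CPM in plate 2 well 3 and 1.018 CPM in plate 3 well 1. Among kept single-cell wells 5.45% carried a Penk count, and 10 independent cells per well at each plate's share would have put it in 6.48 of 16 wells. Of 10 genes of opioid precursors and peptide processing, 9 were found in any ten-cell well and 2 in at least 8: Furin, a proprotein convertase, and Pam, which amidates peptides.

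The median number of genes found per well differed between the kinds of well, although the ranges of ten-cell and kept single-cell wells overlapped. Ten-cell wells held 9243, 8952, 6240 and 7313 genes on plate 1 and 5136, 11124, 7637 and 7411 genes on plate 2. They held 4933, 4453, 4359 and 6150 genes on plate 3 and 5440, 7007, 8775 and 4345 genes on plate 4. The median was 6624 genes, against 1101 (501 to 8033) in kept single-cell wells and 47.5 (at most 885) in wells without a cell. The well with the most genes was plate 2 well 2, which also held the fibroblast counts.

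Within plates the median of the ten-cell wells was 7.82, 5.01, 4.81 and 5.69 times that of the single-cell wells on plates 1 to 4, a mean of 5.83 ± 1.38 (SD, n = 4 plates). All 4 plates pointed one way, and the exact two-sided permutation test over plates gave p = 0.125, the smallest that 4 plates can give. At 400000 counts per well, which left out 20 shallower single-cell wells, the ratio was 6.25.

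Most ten-cell wells held fewer genes than 10 independent draws from the kept single-cell wells of the same plate would give. Those draws would give 9145, 10219, 6700 and 7717 genes on plates 1 to 4, and 1, 1, 0 and 1 of the 4 wells exceeded them. Drawing from all single-cell wells, shallow ones included, gave 7772, 8387, 4445 and 5588 genes, and 2, 1, 3 and 2 wells exceeded these. The draws join 10 separately sequenced wells, and kept single-cell wells had a mean of 1764000 counts each, against 4277000 in a ten-cell well. In these pools, fewer cells in a well, less RNA recovered per cell and fewer counts per cell cannot be told apart. The part of each was not tested.

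**Figure D2:**
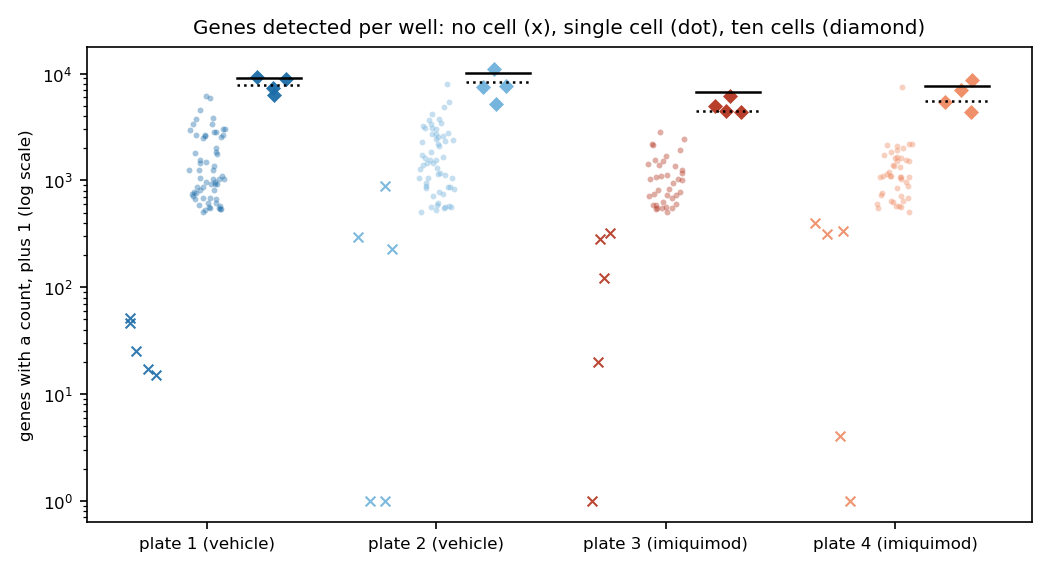
Genes with a count (log scale, plus 1) in each well by plate: crosses are wells without a cell, dots kept single-cell wells and diamonds ten-cell wells. Solid bars give the genes expected from 10 independent kept single cells and dotted bars from 10 of all single-cell wells. The 16 diamonds lie between 4345 and 11124 genes, and 3 of them lie above their solid bar.

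Across wells, 22190 of the 50556 genes in the matrix were found in any ten-cell well, 5478 in at least 8, 409 in all 16 and 6104 in 1 well only. Only 68 genes were found both in all 16 ten-cell wells and in at least 50% of the kept single-cell wells. Genes that were sparse in single cells were filled in by pooling: Foxp3 went from 37.1% of kept single-cell wells to 16 of 16 ten-cell wells, and Il2ra from 47.5% to 16. Cd3e went from 23.8% to 15 wells, where independent draws would give 14.9. Cd4, the coreceptor for MHC class II, was also found in 23.8% of single-cell wells but in 11 ten-cell wells, where draws would give 13.9. Il10, an anti-inflammatory cytokine, was found in 12 wells against 13.3. Ccr7, the lymph node homing receptor, was found in 4 wells against 13. Of 2556 genes expected in at least 12 wells, 2435 were found in over 50% of the expected wells. Their median level in single-cell wells that carried them was 42.2 CPM, against 1.08 CPM for the remainder.

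The spread between ten-cell wells was wide. Over the 5478 genes found in at least 8 ten-cell wells, the well with the most counts of a gene held a median of 33.6% of all its ten-cell counts. The median coefficient of variation (SD over mean of CPM) of these genes was 1.59 over ten-cell wells and 6.45 over kept single-cell wells. The highest value it can take rises with the number of wells, so these values are not on one scale. The mean level per gene followed that of the single-cell wells with Pearson's r = 0.802 and Spearman's rho = 0.738 across these genes, which are not independent replicates, and 55.5% of genes lay within 2-fold.

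The 10 genes of highest median CPM in the ten-cell wells had various roles. H2-D1 and H2-K1, MHC class I heavy chains whose similar sequences may share reads, had medians of 4243 CPM (31.38 to 6356) and 3560 CPM (769.2 to 5308). Vim, an intermediate filament, had a median of 3735 CPM and Lmna, a nuclear lamin, 2807 CPM. Actb, cytoplasmic actin, and Fth1, the ferritin heavy chain, had medians of 2473 and 2472 CPM. The translation factor Eef1a1 stood at 2285 CPM, the NF-kB inhibitor Nfkbia at 2431 CPM and the nuclear RNA Malat1 at 2120 CPM. Ly6e, a surface protein induced by interferon, had a median of 2462 CPM. All of them were found in all 16 wells.

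Markers of other cell types were high in single wells for some lists and spread over many wells for others. Fibroblast markers were at 0 in 8 wells. In plate 2 well 2, however, Col1a1, Col3a1 and Col1a2, chains of fibrillar collagens, stood at 9598, 7729 and 6144 CPM. Col1a1 was found in only 2 other ten-cell wells, at 0.1617 and 12.52 CPM. The same well had the highest endothelial sum, 3473 CPM, with the vessel receptor Flt1 at 658 CPM and the junction proteins Cdh5 and Cldn5 at 319.5 and 338.8 CPM. Its Foxp3 level was 259.7 CPM, the second lowest among vehicle wells.

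In plate 4 well 3, the MHC class II chains H2-Ab1, H2-Aa and H2-Eb1 stood at 6754, 2823 and 2723 CPM, and Lyz2, lysozyme of myeloid cells, at 1556 CPM. The next highest H2-Ab1 well had 443.6 CPM, and 11 wells had no count. C1qa and C1qb, complement chains made by macrophages, stood at 170.5 and 365.2 CPM in this well and at 0 in the other 15. The macrophage markers Cd68, Mrc1 and Cd14 were at 0 in it. Nkg7, a granule protein of cytotoxic cells, made up the whole NK and ILC sum of 1758 CPM in plate 3 well 4, where Ncr1, Klrb1c, Klrk1 and Eomes were at 0. Markers of CD8 T cells did not exceed 124.2 CPM in any well, and those of gamma-delta T cells 26.8 CPM.

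Dendritic and Langerhans cell markers were present in every well, with a median sum of 718.7 CPM. The sum was 445.2, 360.4, 5.022 and 751.9 CPM on plate 1, 749.8, 687.6, 190 and 682.7 CPM on plate 2, 4520, 3925, 2241 and 1787 CPM on plate 3 and 1208, 412.6, 4565 and 594.3 CPM on plate 4. Plate 3 and wells 1 and 3 of plate 4 lay above all vehicle wells. In most wells it came mainly from Cst3, a secreted protease inhibitor, and Zbtb46, a transcription factor of classical dendritic cells. Of the other members, Itgax, Clec9a, Cd209a and Siglech were at 0 in all 16 wells, whereas Epcam was found in 8, Flt3 in 5 and Xcr1 in 1. Cd207 (langerin) reached 780.7 CPM in plate 4 well 3 and 1.408 CPM in 1 other well.

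Neutrophil markers had a median sum of 569.9 CPM (0 to 2484), which came mainly from Il1r2, a decoy receptor for interleukin-1 found in 15 wells. S100a8, Csf3r and Ly6g were at 0 in all wells. Erythroid markers were at 0 in all 8 vehicle wells and present in 6 of 8 imiquimod wells, up to 398.7 CPM, mainly as the haemoglobin chains Hba-a1 and Hbb-bs.

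**Figure D3:**
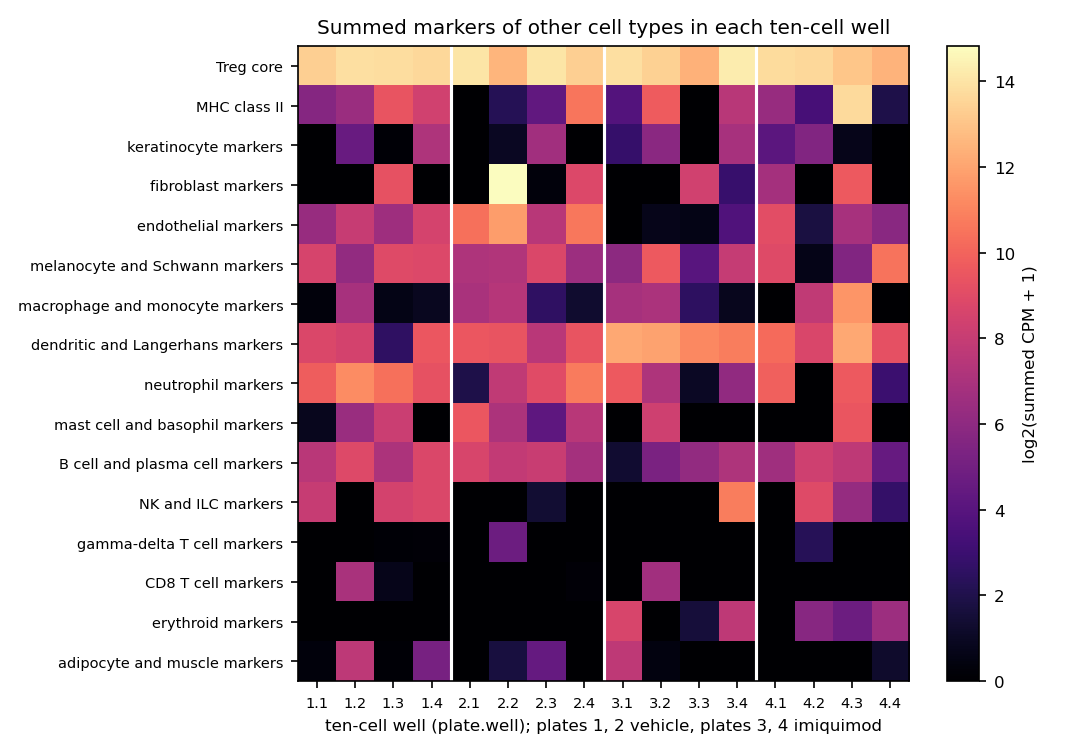
Summed level of the core Treg list and of 15 lists of markers of other cells (rows) in each ten-cell well (columns, named plate.well) as log2(summed CPM + 1). Fibroblast markers reach 29090 CPM in well 2.2 and MHC class II genes 13140 CPM in well 4.3, while the core Treg list lies between 5508 and 19480 CPM throughout.

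Wells without a cell held counts of genes of other tissues and of genes common in the ten-cell wells. Of the 20, 8 had at least 10000 counts, and a median of 6.48% of their counts (up to 53.2%) lay in 18 genes of intestine and pancreas, a list drawn up after values were seen. Ten-cell wells held at most 0.117% in these genes. A median of 60.1% of the counts of the same 8 wells lay in genes found in at least 8 ten-cell wells, against 81.5% in ten-cell wells. The highest of them held 97470 CPM of ribosomal protein genes, 88310 CPM of MHC class I presentation genes and 9636 CPM of dendritic and Langerhans markers. Genes of the T cell receptor complex and its proximal kinases reached 10020 CPM, tissue and effector Treg genes 5101 CPM and interferon response genes 6157 CPM. For the core Treg list the highest was 9.818 CPM.

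The first comparison asked whether 10 pooled cells gave the same composition as the single cells of their plates. Counts were summed over the 4 ten-cell wells and over the kept single-cell wells of each plate, and edgeR's quasi-likelihood test was run on the 8 sums with plate as a block. Of 17059 genes tested, 0 passed an adjusted p of 0.05 (0% called), and 455 had an unadjusted p under 0.05 (2.67%). DESeq2 on the same sums called 1281 (7.51%) and limma on mean log2(CPM + 1) 21.8%, all of the latter higher in ten-cell wells. On that scale each well at 0 lowers the mean. Single-cell wells held fewer genes each, so the direction of the limma calls does not show a difference in level.

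Since no gene passed, the genes described next had the smallest unadjusted p among 160 higher and 80 lower genes that met set conditions. These were the same direction on all 4 plates and a floor on detection in the group where the gene was higher. Agreement over plates was thus part of the choice and is not a result. Ikzf2 had 2200, 3669, 493.2 and 1098 CPM in the ten-cell sums of plates 1 to 4 and 4407, 4165, 1289 and 2631 CPM in the single-cell sums. It was lower in the ten-cell wells on each plate, by a log2 fold change of -1.33 (SE 0.30, unadjusted p = 0.00028, adjusted p = 1.00). Without the filter on low counts Ikzf2 was called, at an adjusted p of 0.011, and on the mean log2(CPM + 1) scale its direction turned, to 3.77. Dennd4a, a regulator of Rab GTPases, had ten-cell sums of 2163, 2875, 1259 and 2751 CPM, each below the single-cell sums of 3729, 3050, 2139 and 4512 CPM. Smyd3, a lysine methyltransferase, and Tank, an adaptor of NF-kB signalling, were also lower on each plate, with log2 fold changes of -2.41 and -1.79. On the mean log2 scale, which wells at 0 pull down, the direction of all 10 such genes turned.

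In the other direction, Cd52, a lymphocyte surface glycoprotein, had ten-cell sums of 447, 228.5, 2745 and 593 CPM and single-cell sums of 180, 206.8, 568.7 and 129.9 CPM. Its log2 fold change was 1.13 (SE 0.54, unadjusted p = 0.051). Ptprcap, a partner of CD45, and Psma2, a proteasome subunit, had log2 fold changes of 1.04 and 2.22, with adjusted p-values of 1 by edgeR.

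By list, 5 of 15 core Treg genes tested lay higher in ten-cell wells (median log2 fold change -0.23), beside 6551 of all 17059 genes (median -0.59). Of 22 MHC class I presentation genes, 3 lay higher (median -0.71). Of 30 proliferation genes, 6 lay higher and 24 lower (median -2.39), and 6 of the lower ones had an unadjusted p under 0.05, beside 1.96% of all genes in this direction and 0.709% in the other. Of 15 intestine and pancreas genes, 1 lay higher. None of these genes passed the adjusted test.

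The plates were compared next. The likeness of ten-cell wells within a plate differed by plate. The median correlation across 5478 genes of log2(CPM + 1) was 0.399, 0.357, 0.38 and 0.276 for the 6 pairs of wells within plates 1 to 4. Wells of plates 1, 2 and 3 were most alike within their plate, whereas plate 4 wells had higher medians with plates 1 (0.305), 2 (0.312) and 3 (0.287). Over all plates the median was 0.37 for 24 pairs on one plate. It was 0.313 for 32 pairs on the other plate of the same treatment and 0.277 for 64 pairs across treatments. All pairs share genes, and wells of one plate share its handling. Set against the summed single cells of each plate, 10 of 16 wells were closest to their own plate, namely all 4 on plates 1 and 3 and 1 each on plates 2 and 4. Plate 4 well 4 was closest to the single cells of plate 3, at r = 0.283 against 0.278 for its own.

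Ribosomal protein genes, a list drawn up after values were seen, took different shares of counts on the plates. They took 1.12, 1.59, 2.69 and 1.82% of counts in the wells of plate 1 and 0.538, 0.772, 0.637 and 1.36% on plate 2. They took 13.05, 11.34, 12.85 and 8.39% on plate 3, and 1.71, 1.64, 1.93 and 11.65% on plate 4. All plate 3 wells and plate 4 well 4 were high, and the remaining 3 wells of plate 4 lay within the range of the vehicle wells. The same genes took a median of 0.567, 0.780, 2.52 and 0.775% in the kept single-cell wells of plates 1 to 4.

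Messenger RNAs of ribosomal proteins begin with a run of pyrimidines, through which their translation is controlled together. The letters CTTTC, searched on the sense strand from 10 bases before to 20 after the annotated start, occurred in 14 of 54 ribosomal protein promoters with 1 start (25.9%). They occurred in 3.76% of all 22862 such promoters, and on the other strand in 5.56% and 3.43%. The stretches below, from 60 bases before to 20 after the start, are those of the 4 genes with a match that had the highest median CPM (RefSeq, GRCm38.p6, capitals mark CTTTC). They were chosen for the match, which most ribosomal protein promoters lack, and show where in the start region the letters fall. Rpl13a lies at chr7:45128726-45128805 (minus strand), Rpl12 at chr2:32961652-32961731 (plus), Rpl7a at chr2:26910747-26910826 (plus) and Rps26 at chr10:128626487-128626566 (minus).
Rpl13a: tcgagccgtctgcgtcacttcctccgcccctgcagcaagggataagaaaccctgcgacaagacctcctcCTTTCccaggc
Rpl12: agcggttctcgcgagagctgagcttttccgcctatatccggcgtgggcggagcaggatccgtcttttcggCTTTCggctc
Rpl7a: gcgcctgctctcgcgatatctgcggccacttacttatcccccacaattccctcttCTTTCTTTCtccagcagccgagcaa
Rps26: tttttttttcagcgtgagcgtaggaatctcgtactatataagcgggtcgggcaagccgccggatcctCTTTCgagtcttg

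Rpl13a, a large-subunit protein, stood at 99.64, 117.1, 91.93 and 160.3 CPM on plate 1, and at 53.73, 47.18, 130 and 217.9 CPM on plate 2. It stood at 1273, 1124, 2611 and 1243 CPM on plate 3 and at 174.1, 175.2, 163.6 and 5.634 CPM on plate 4. Every plate 3 well exceeded every other well in Rpl13a, and the ribosome-rich well of plate 4 was its lowest. Rps26, a small-subunit protein, behaved otherwise in that well: it stood at 2172 CPM in plate 4 well 4 and between 45.62 and 131.7 CPM in the other wells of plate 4.

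Summed by plate and tested between inferred treatments, 80 of 81 ribosomal protein genes lay higher on the imiquimod plates, with a median log2 fold change of 3.01, beside -0.33 for all 11021 genes. With DESeq2's size factors the median of all genes was -0.09. Of the 81 genes, 40 had an unadjusted p under 0.05, where 2.46% of all genes did in this direction, and 0 passed the adjusted test. Since the list was chosen for its values, these counts are a description. Without plate 3 the median was 0.54, with 60 of 83 genes higher, beside -1.33 for all genes. Without plate 4 it was 3.85, with 80 of 81 genes higher, beside -5.68 for all genes. Each of these fits rests on 1 imiquimod plate. Without plate 3 or 4 they tested 16438 and 15563 genes. Only 13646 genes were found in any ten-cell well of plate 4 and 10627 in any of plate 3. The medians of all genes thus rest in part on genes at 0 on the imiquimod plate left, whose fitted values are no bound. Without plate 4 well 4 it was 2.94. The 2 imiquimod plates differed as well: 10 of 81 genes lay higher on plate 4 than on plate 3, with a median of -1.88 beside 1.15 for all genes. Plate 2 against plate 1, both vehicle, gave a median of -0.99.

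Genes of the respiratory chain and ATP synthase showed a like pattern. Of 33 tested, 29 lay higher on the imiquimod plates, with a median of 2.18 that became 0.07 without plate 3, beside -1.33 for all genes. Cox8a, a subunit of cytochrome oxidase, had plate sums of 122.1, 83.89, 1751 and 104.5 CPM on plates 1 to 4, and Atp5o, a subunit of ATP synthase, 28.06, 31.48, 1169 and 133.04 CPM.

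The length of genes in the genome moved with these differences. Genes spanning over 100 kb took between 17.2 and 20.6% of counts on plate 1, 21.8 and 32.4% on plate 2, 8.17 and 11.6% on plate 3 and 12.7 and 16.7% on plate 4. Genes under 10 kb took between 41.8 and 48.8% on plate 3 and 38.57% in plate 4 well 4, against 10.9 to 26.5% in the other wells. In bins of rising span (matched for 93.8% of genes) the median log2 fold change of imiquimod over vehicle plates was 1.01, 0.02, -0.33, -0.61 and -1.08. Between the imiquimod plates, plate 4 against 3, it ran from -0.35 in the shortest bin to 2.19 in the longest. The part of gene span in the values of single genes was not tested.

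**Figure D4:**
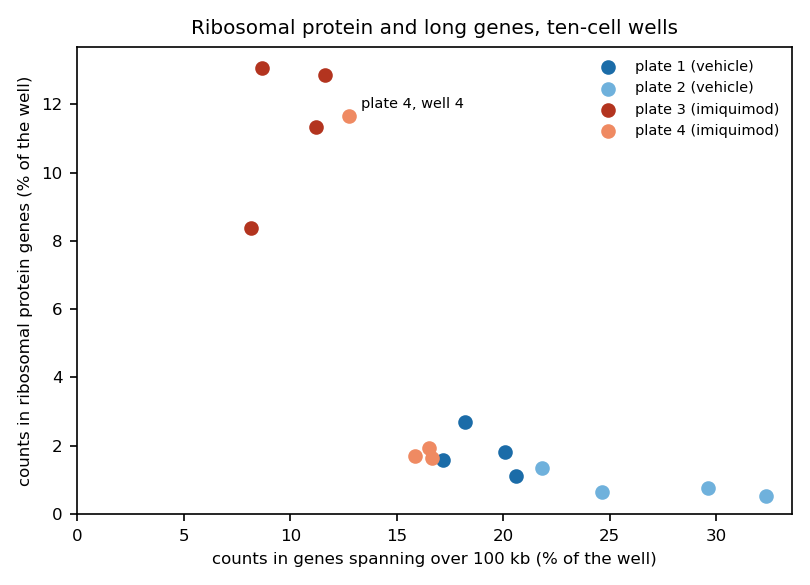
Percent of a well's counts in ribosomal protein genes (vertical) against percent in genes spanning over 100 kb (horizontal) for the 16 ten-cell wells, coloured by plate. The 4 wells of plate 3 and plate 4 well 4 lie above 8% in ribosomal protein genes and the other 11 wells below 3%.

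**Figure D5:**
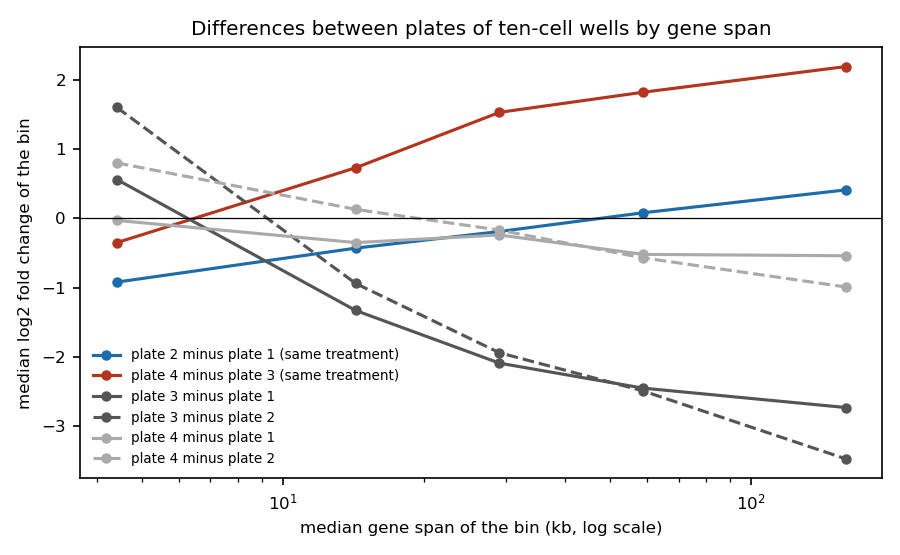
Median log2 fold change between plates of ten-cell wells (vertical) in 5 bins of gene span (horizontal, kb, log scale), for the 6 pairs of plates. The curves that involve plate 3 are the steepest, running from 1.6 to -3.47 against plate 2, and the pair of imiquimod plates differs as well, from -0.35 to 2.19.

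The comparison of imiquimod with vehicle plates, on 2 sums against 2, asked which genes of the pooled cells went with the inferred treatment. By edgeR's quasi-likelihood test 0 of 11021 genes passed an adjusted p of 0.05 (0% called), and 643 had an unadjusted p under 0.05 (5.83%). DESeq2 called 775, and leaving out plate 1, 2 or 3 gave 2, 0 and 45 calls and leaving out plate 4 called 1.94% of genes. A fit without a plate sets 1 plate against 2, so its calls can be a property of that 1 plate. Both imiquimod plates lay above both vehicle plates for 11.3% of genes and below for 25.1%.

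Interferon response genes are those that cells turn on after type I or II interferon. Their sum was 5190, 5351, 7078 and 6410 CPM on plate 1 and 2138, 6558, 4681 and 4764 CPM on plate 2. It was 9181, 9436, 6135 and 12030 CPM on plate 3 and 9930, 7991, 14410 and 11890 CPM on plate 4. Of the 8 imiquimod wells, 7 exceeded all vehicle wells, the exception being plate 3 well 3. Dendritic and erythroid markers also lay above all vehicle wells in 6 of the 8, and their part in this result was not tested. Of 39 members tested, 31 lay higher on the imiquimod plates, with a median log2 fold change of 1.39, beside 4921 of all 11021 genes and a median of -0.33. The median was 2.37 without plate 3, beside -1.33 for all genes, and 0.02 without plate 4, beside -5.68 for all genes. As given above, genes at 0 on the imiquimod plate left are part of these medians of all genes. Without all 3 wells that stood apart it was 1.62. None of the 39 passed the adjusted test by edgeR, and 3 had an unadjusted p under 0.05, beside 2.46% of all genes in this direction. Without plate 3, 42 of 49 members tested lay higher, beside 5939 of 16438 genes. Without plate 4, 20 of 39 did, beside 4026 of 15563 genes.

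Of the members, Ly6e, described above, had the highest median CPM. The members named next differed by plate and do not show what carried the sum. Ly6a (Sca-1), a surface protein of activated lymphocytes, stood at 1296, 3333, 3412 and 1904 CPM in the wells of plate 3, above all other wells. Its plate sums were 448.5, 356.6, 2410 and 635.8 CPM. Ifit1, an RNA-binding antiviral protein, had no count in any vehicle well and stood at 93.29, 688.4 and 130.98 CPM in wells 2 to 4 of plate 4. Igtp, an interferon-inducible GTPase, had plate sums of 11.11, 0.5829, 28.06 and 520.4 CPM.

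The suppressive and cytotoxic effector list was the one of 41 lists whose sum was higher in all 8 imiquimod wells than in all 8 vehicle wells, chosen here after its values were seen. The sum was 2683, 3999, 4124 and 4021 CPM on plate 1, 2656, 2168, 3950 and 2704 CPM on plate 2, 8708, 8147, 10860 and 7956 CPM on plate 3 and 6693, 6130, 4561 and 12040 CPM on plate 4. By gene, 6 of 10 tested lay higher, with a median log2 fold change of 1.22, and none passed the adjusted test. The median was 0.59 without plate 3, beside -1.33 for all genes, and 0.73 without plate 4, beside -5.68.

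Lgals1, galectin-1, was high with the ribosomal protein genes: it stood at 5879, 3939, 7530 and 3085 CPM on plate 3 and 6735 CPM in plate 4 well 4, and between 189.4 and 1335 CPM in the other 11 wells. Srgn, the proteoglycan core of secretory granules, lay between 78.56 and 1463 CPM in vehicle wells and between 1049 and 3281 CPM in imiquimod wells. Gzmb, a granule protease, stood at 2356, 2538, 1676 and 677.4 CPM on plate 4 but at 1058, 143.2, 39.08 and 1992 CPM on plate 3. Il10 stood at 550.5, 531.4, 296.9 and 3380 CPM on plate 4 and at 4.074, 0, 4.628 and 960.3 CPM on plate 3. Its log2 fold change was 2.91 (SE 1.44, unadjusted p = 0.060, adjusted p = 0.683, edgeR).

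Core Treg genes lay on both sides between the inferred treatments. Of 15 core genes, 8 lay higher and 7 lower on the imiquimod plates, with a median of 0.06, beside -0.33 for all genes. Without plate 3, 3 of 15 lay higher (median -0.73), beside 5939 of 16438 genes (median -1.33). Without plate 2 well 2, 7 did (median -0.05), beside a median of -0.15 for all genes. Without plate 4, 9 of 16 lay higher (median 0.38), beside 4026 of 15563 genes (median -5.68). The medians of all genes without a plate rest in part on genes at 0, as given above. Foxp3 plate sums were 620.8, 688.4, 655.2 and 437 CPM, a log2 fold change of 0.06 (SE 1.08). Ikzf2 had a log2 fold change of -1.77 (SE 0.85, unadjusted p = 0.053, adjusted p = 0.683, edgeR) and Il2ra -0.90 (SE 0.85, adjusted p = 0.998, edgeR). In TGF-beta signalling, 2 of 15 genes lay higher and the median was -1.72, beside -0.33 for all genes. Without plate 3 it was -1.40, beside -1.33 for all genes, and without plate 4 -4.30, beside -5.68. Its members Smad7, an inhibitor of the pathway, and Smad4, the shared mediator, had plate 3 sums of 3.231 and 4.932 CPM and plate 1 sums of 143.6 and 96.89 CPM.

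The fibroblast genes tested depended on plate 2 well 2. All 5 tested lay lower on the imiquimod plates, 3 of them with an unadjusted p under 0.05, beside 3.38% of all genes. Without that well 3 could be tested, 1 higher and 2 lower.

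Genes of smallest unadjusted p in this comparison are named in place of called genes. Ptprcap had plate sums of 218.99, 293.1, 3443 and 500.7 CPM, and Cst3, a member of the dendritic and Langerhans list, 112.97, 127.8, 1205 and 1012 CPM. On plate 4 Cst3 was highest in well 3 (2937 CPM), which stood apart with MHC class II and macrophage markers, and stood between 0 and 412.6 CPM in the other wells.

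In the other direction, Apc, the scaffold that targets beta-catenin for degradation, stood at 261.1, 110.6, 72.6 and 568.8 CPM on plate 1 and 2190, 321.6, 308.6 and 253.8 CPM on plate 2. On the imiquimod plates it had a count in 1 well only, plate 3 well 2 at 0.3394 CPM. In kept single-cell wells Apc was found in 11.9%, with plate sums of 123.2, 77.13, 0.07427 and 34.49 CPM. Its adjusted p was 0.62 on plate sums, and 0.0044 when the 16 wells were taken as units, which measures spread between wells only. Runx3, a transcription factor of cytotoxic and tissue T cells, had plate sums of 473.6, 90.67, 0.4252 and 2.712 CPM. Drosha, the nuclear enzyme of microRNA processing, and Wrn, a DNA helicase, had plate sums of 190.9 and 92.89 CPM on plate 1, 134.97 and 190.7 CPM on plate 2 and 0 on plates 3 and 4.

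Over the 16 wells, the F test for any difference among plates gave 0 of 7599 genes past an adjusted p of 0.05 (0% called) and 1095 with an unadjusted p under 0.05 (14.4%). DESeq2 called 1.53%, and leaving out any one of the 3 wells that stood apart gave between 22 and 34. Among the 6 pairs of plates, calls arose only between plates 3 and 2, among them Prkch and Pecam1. Prkch, a protein kinase C of lymphocytes, stood at 1638, 2994, 2464 and 1756 CPM on plate 2 and at 1.018, 3.734, 25.19 and 21.61 CPM on plate 3 (log2 fold change -7.36, adjusted p = 0.033, edgeR). On plate 4 it stood at 1316, 1404, 541.3 and 2.817 CPM, so the low well was again plate 4 well 4. Pecam1, an adhesion molecule of endothelium and some leukocytes, stood at 1341, 1133, 181.8 and 1365 CPM on plate 2 and had no count on plate 3 (adjusted p = 0.041, edgeR).

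Whether the difference between inferred treatments was the same in pooled and in single cells was tested as an interaction over the 8 sums. By edgeR 1 of 17059 genes passed (0.00586% called, and 1.69% at an unadjusted p under 0.05): Ulk3, an autophagy-related kinase. It was found in 3 ten-cell wells, at 0.4147 CPM on plate 1 and at 323.7 and 364.9 CPM on plate 2, and in none of plates 3 and 4. Single-cell sums were 0, 77.53, 681.2 and 347.9 CPM, from 2.97% of kept wells. Without the highest well of each sum, without plate 1 or plate 2, or with single-cell wells of at least 1000 genes, Ulk3 did not pass (adjusted p = 1, edgeR). Fos, an immediate early transcription factor, had ten-cell sums of 1270, 1213, 348.1 and 1968 CPM and single-cell sums of 759.8, 381.04, 2815 and 2685 CPM. Its interaction was -3.36 (SE 0.76, adjusted p = 0.18). A pair of lists had been chosen from the single cells of these plates as higher or lower with imiquimod, so they are not independent evidence. In ten-cell wells 10 of 12 genes of the first lay higher on the imiquimod plates (median 0.55) and 7 of 11 of the second lower (median -0.90). Without plate 2 well 2 the second list had 4 higher and 5 lower (median -0.29), and without all 3 wells that stood apart 4 higher and 4 lower (median 0.98).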

How the data were processed

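The deposited matrix holds the authors' read counts per gene symbol and well. Trimmomatic 0.39, STAR 2.7.3a, SAMtools 1.12 and the build mm39 are named per the submitters' processing notes; how reads were counted, on which strand and with which annotation is not given in the sources used here, so overlapping or similar genes are uncertain. No molecular identifier is described, so copies made by PCR are counted. CPM per well and sums per plate were computed from the deposited counts. Tests were edgeR 4.0.16 quasi-likelihood fits (filterByExpr, TMM, Benjamini-Hochberg over all genes tested), with DESeq2 1.42.0 and limma 3.58.1 as alternatives. The edgeR fits were run on simulated data of smaller dispersion than the data, where the common dispersion was between 2.485 and 6.596. The simulation therefore does not give their power or false calls at the spread of these wells. Correlations and the limma fit used log2(CPM + 1). Gene spans came from GENCODE (GRCm38), matched by symbol, and promoters from RefSeq (GRCm38.p6), which held 64 of 89 ribosomal protein symbols. Genes were named by rule: fixed Treg genes, those of highest median CPM, up to 4 per list, and 10 per direction of a comparison past the threshold with plates in 1 direction or, as none passed, of smallest p. Those named by direction also had to reach a floor on detection in the group where they were higher. Further members of a list were named after their values were seen. The wells, lists and genes were chosen with earlier results of these data known. A list of mitochondrially encoded genes matched no symbol as first written and is not reported. Some genes that met the naming rule are not reported here.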

Additional observations from a re-analysis of the deposited data

Results flagged for a closer look

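Within each of 4 plates, 64 measures were examined for 1 well far from the other 3, and 41 of these groups passed Dixon's critical value of 0.829. Chance flags about 1 in 20 groups of normally distributed values, which these measures need not be. A group with 3 wells at 0 and 1 above 0 always passes, as CD8 T cell markers did on plate 2. The flags are therefore a description. Plate 4 well 4 was far from its plate in 6 measures, of which the ribosomal percent and sum are the same quantity. Ribosomal protein genes were high (11.65% of counts, 116500 CPM summed), as were Il10 (3380 CPM) and adipocyte and muscle markers (1.408 CPM). Immediate early genes (2593 CPM) and MHC class I presentation genes (6845 CPM) were low. Plate 4 well 3 was high in MHC class II genes (13140 CPM) and in markers of macrophages (2957 CPM), fibroblasts (796 CPM) and mast cells and basophils (697.1 CPM). Plate 4 well 2 was high in NK and ILC markers (500.7 CPM) and gamma-delta T cell markers (3.802 CPM).

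On plate 2, well 2 was high in fibroblast markers (29090 CPM) and gamma-delta T cell markers (26.8 CPM). Well 3 was high in markers of keratinocytes (100.4 CPM), NK cells (1.701 CPM) and adipocytes and muscle (21.63 CPM) and in Penk (1.701 CPM), and low in dendritic markers (190 CPM). Well 4 was high in counts (6183000), MHC class II genes (1521 CPM) and CD8 T cell markers (0.1617 CPM).

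On plate 3, well 1 was high in type 17 genes (1939 CPM), adipocyte and muscle markers (214.4 CPM) and Penk (1.018 CPM). Well 2 was high in interleukin-2 and STAT5 genes (6369 CPM), naive and recirculation genes (882.5 CPM), mast cell markers (317.4 CPM) and CD8 T cell markers (101.8 CPM). Well 3 was high in fibroblast markers (330.1 CPM) and low in Areg (89.47 CPM). Well 4 was high in endothelial markers (12.44 CPM), NK and ILC markers (1758 CPM) and Il10 (960.3 CPM).

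On plate 1, well 1 was low in suppressive and cytotoxic effectors (2683 CPM). Well 2 was high in naive and recirculation genes (2111 CPM), macrophage markers (122.6 CPM) and CD8 T cell markers (124.2 CPM). Well 3 was high in respiratory chain genes (5195 CPM) and fibroblast markers (616.6 CPM), and well 4 in keratinocyte markers (142.9 CPM). Between kinds of well, the difference between inferred treatments in Ulk3 was -20.63 on the log2 scale by the interaction test, a fitted value that is no bound, since Ulk3 was at 0 in several sums.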

How the results depend on the processing

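Counts of calls are given as a percent of the genes tested. Ten-cell against single-cell wells called 0% in edgeR, 7.51% in DESeq2, 21.8% with limma on mean log2(CPM + 1) and 0.00998% without the filter on low counts. The limma fit weighs wells equally, and each well at 0 lowers its means. It turned Ikzf2 (3.77), Dennd4a (3.67), Smyd3 (4.09), Maml2 (4.70), Cpm (3.78), H2-K1 (4.41), Ddx5 (4.38), Tank (3.73), Lncpint (4.59) and Pitpnc1 (4.96) to higher in ten-cell wells. This turn does not show a difference in level, and its cause was not tested. Imiquimod against vehicle plates called 0%, against 7.03% in DESeq2, 0.0766% without the filter, 0.0921% with the 16 wells as units and between 0% and 1.94% (without plate 4) when a plate or well was left out. The interaction called 0.00586%, against 6.11% in DESeq2, 0.0133% without the filter, 0.0115% with all single-cell wells, 0% with limma, 0% without each gene's highest well and 0% with single cells of at least 1000 genes, where Zswim4 turned to 1.23. Leaving out plates gave between 0% and 0.738%. Without plate 2 well 2 it called 0.0182%, without plate 4 well 4 0.0118% and without all 3 wells that stood apart, chosen after seeing the data, 0.0248%. Differences among plates called 0%, against 1.53% in DESeq2, 0.079% with its size factors, 0.87% without the filter and between 0.1% and 0.523% with 1 well left out (0.259%, 0.286% and 0.374% for the 3 wells that stood apart, 0.382% without all 3). Well numbers did not pair the wells: same-numbered wells of different plates deviated with correlations of -0.032 to 0.025, and the replicate block gave 0.105% for imiquimod against vehicle plates and 0.171% among plates. The ratio of genes per well was 7.36 at 100000 counts, 11.3 for genes with at least 5 counts, 3.51 against single cells of at least 1000 genes and 10.9 against all single-cell wells. For 43 named genes, 914 of 985 alternative values kept direction and side of the threshold, 55 passed it newly, 5 (all Ulk3) lost it and 11 reversed. Depth limits plate 4 well 4 most, where 1 read is worth over 1 CPM, and 2 plates a side limit every test of treatment.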
